A study of Mus musculus with 6 samples.

Results

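The carboxylesterase genes expressed in mouse liver were followed in ethanol-fed mice with and without hepatocyte ACSS2, the acetyl-CoA synthetase of cytosol and nucleus. The 10 members are Ces1b, Ces1c, Ces1d, Ces1e, Ces1f, Ces1g, Ces2a, Ces2c, Ces3a and Ces3b. They were taken by gene symbol from a table of 16135 genes, and all 10 were found. Liver RNA came from a floxed control genotype (ACSS2-flox, n = 3 libraries) and from a genotype with a hepatocyte-specific knockout (ACSS2-HKO, n = 3). Both genotypes had been kept on the Lieber-Decarli liquid diet with ethanol for 10 days and had then received 1 ethanol binge, so no library shows a liver without alcohol. The sources used here do not give the Cre driver, the age, sex and strain of the mice, or whether each library came from an animal of its own. The p-values therefore measure the spread between these libraries, which may be partly technical. The study asks what ACSS2 does in alcoholic liver disease.

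Carboxylesterases are serine hydrolases that cleave esters, amides and thioesters. Hepatocytes make them in large amounts and keep most members of the family in the lumen of the endoplasmic reticulum, where the enzymes clear drugs and other foreign esters and also act on stored lipid. Several of the Ces1 and Ces2 enzymes release fatty acids from triglyceride or diglyceride, and the family is a link between the lipid droplet and the lipoproteins that the liver secretes. An enzyme stays in the endoplasmic reticulum when its carboxy terminus carries a retrieval signal, in this family usually histidine, any residue, glutamate and leucine.

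The genes lie on chromosome 8 of GRCm38 (mm10) in 2 arrays, per GENCODE M21. The Ces1 genes run on the minus strand, from Ces1b (93056728 to 93080017) through Ces1c (93099015 to 93131283), Ces1d (93166068 to 93197838), Ces1e (93201218 to 93229619) and Ces1f (93256236 to 93279747) to Ces1g (93302369 to 93337308). The Ces2 and Ces3 genes run on the plus strand, from Ces2a (104734003 to 104741634) and Ces2c (104847068 to 104854483) to Ces3a (105048601 to 105058413) and Ces3b (105083753 to 105093929). The last 30 coding bases before the stop codon are shown because they mark which products are retained in the endoplasmic reticulum. The capitals are the last 4 codons of the longest complete coding sequence in GENCODE M21, read 5′ to 3′ on the coding strand.
Ces1b: acagaccctactgagcacAGAGAACACAAA
Ces1c: acagaccctactgaacacACAGAACACAAA
Ces1d: aggccatcccacagggaaCATGTTGAGCTC
Ces1e: aagcaactgccgacagaaCACACTGAGCTG
Ces1f: aaacaaccccagccatacCACAATGAGCTG
Ces1g: aggtcatcccatagggaaCATGTTGAACTG
Ces2a: aagggttctcaggacaagCATGCAGAGCTG
Ces2c: aaggcttctcaggacaagCACAGGGAGCTT
Ces3a: cagagaagcaggaaagttCCAGAGGAGCTC
Ces3b: cagagaagcaggaaagttCCAGAGGAGCTC
Ces1d, Ces1e, Ces1f, Ces1g, Ces2a and Ces2c encode the full pattern. Ces3a and Ces3b share the same 30 bases and keep the final glutamate and leucine without the histidine. Ces1b and Ces1c encode neither, and Ces1c is the carboxylesterase that mice secrete into plasma.

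The members were grouped into 5 couples by coding sequence, taking the most similar couple first and each member in 1 couple only. Ces3a and Ces3b were 95.3% identical, Ces1b and Ces1c 88.8%, Ces2a and Ces2c 82.4%, Ces1d and Ces1g 81.6%, and Ces1e and Ces1f 78.7%. Outside the couples, Ces1e was also 79.6% identical to Ces1d. How the authors divided fragments that fit more than 1 gene is not given in the sources used here. The sources used here give no read length, so windows of 50 and of 100 bases were searched. Of all 100-base windows in a member's transcript, 9.09% for Ces3a and 7.68% for Ces3b occur unchanged in the other Ces3 transcript. The share was 10.7% for Ces2a and 16.0% for Ces2c, mostly with the gene model Gm7208 and the pseudogene Ces2d-ps, and 1.29% and 1.39% for Ces1b and Ces1c. No 100-base window of Ces1d, Ces1e, Ces1f or Ces1g occurs in another gene's transcript. Of 50-base windows, 30.9% were shared for Ces3a, 26.1% for Ces3b, 22.2% for Ces2a, 42.2% for Ces2c, 11.6% for Ces1b and 17.0% for Ces1c, against 1.28% to 3.21% for Ces1d to Ces1g. Values of Ces1b, Ces1c and the Ces2 and Ces3 members are therefore less certain as single genes than those of Ces1d to Ces1g.

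Values are FPKM, fragments per kilobase of gene scaled to the fragments of the library, as deposited. Dividing by length lets levels be compared between genes. Whole fragment counts could be recovered from the values and implied 33717125 to 39474527 fragments per library. The 10 members together took 152200 to 279340 of them, or 0.386% to 0.828% of a library. The smallest count behind a member's value was 412 fragments, for Ces2c in ACSS2-flox replicate 1. On the first principal component, which placed 4 libraries between 2.51 and 8.49, ACSS2-flox replicate 1 lay at -47.7 and ACSS2-HKO replicate 3 at 27.6. ACSS2-flox replicate 1 also had a lower median FPKM over tested genes (5.20, against 6.67 to 7.09). It held the highest ACSS2-flox value of 6 members, and ACSS2-HKO replicate 3 held the lowest ACSS2-HKO value of 7. The targeted gene Acss2 read 87.8, 61.5 and 58.5 FPKM in the ACSS2-flox libraries, against 50.6, 38.4 and 45.7 FPKM in the ACSS2-HKO libraries (-0.60 ± 0.21 as a log2 fold change, limma adjusted p = 0.637), so transcript remained in every knockout library. In whole liver this value can also include other cells and exons outside the deletion.

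Of the 10 carboxylesterases, 8 had negative log2 fold changes, ACSS2-HKO against ACSS2-flox, beside 3335 of all 9818 genes tested. Ces1g was also negative after median-ratio scaling, where the median of all tested genes was -0.01. For 5 of the 8 (Ces1d, Ces1e, Ces1f, Ces2a and Ces3b) every ACSS2-HKO library read below every ACSS2-flox library. Among all 9818 genes tested, 2.94% were lower without overlap and 12.5% higher without overlap, and no member was higher without overlap. No member passed the adjusted threshold of 0.05 by limma, nor did any gene of the table (0% lower and 0% higher). At an unadjusted limma p under 0.05, 6 members were lower (the same 5 and Ces1b) and 0 higher, against 1.5% and 6.09% of all tested genes. Without ACSS2-flox replicate 1 this was 4 members lower against 4.69% of all genes, and without ACSS2-HKO replicate 3 it was 4 members against 0.754%. The same fit with limma voom on the recovered fragments also gave 0 genes past the adjusted threshold and 6 members lower at an unadjusted p under 0.05, where 298 of all genes were lower and 345 higher. The median log2 fold change of the members was -0.59, beside 0.10 for all tested genes. After median-ratio scaling of the libraries these medians were -0.72 and -0.01. The same 5 members were then lower without overlap, as were 6.75% of all tested genes. Without both distant libraries the median of the members was -0.328. The members were chosen with earlier results of these data known and are related genes. Their counts beside those of all genes are therefore a description.

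**Figure D1:**
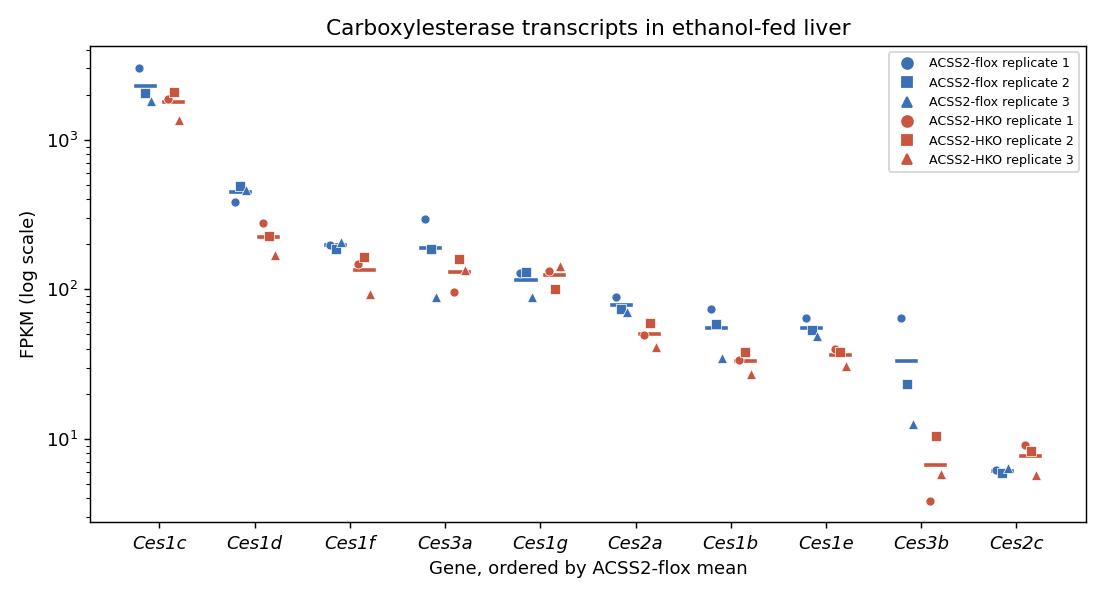
FPKM of the 10 carboxylesterases on a log axis, with 1 point for each library (circle, square and triangle for replicates 1, 2 and 3) and a line at the group mean, ordered by ACSS2-flox mean. ACSS2-HKO points lie below all ACSS2-flox points for Ces1d, Ces1f, Ces2a, Ces1e and Ces3b, and the groups overlap for the other 5.

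Ces1d encodes triacylglycerol hydrolase, the enzyme that mobilises stored triglyceride in the endoplasmic reticulum for very low density lipoprotein (VLDL). It read 382, 493 and 460 FPKM in the ACSS2-flox libraries, against 277, 228 and 170.0 FPKM in the ACSS2-HKO libraries. The highest ACSS2-HKO library was below the lowest ACSS2-flox library. The means were 445 ± 56.9 and 225 ± 53.6 FPKM (SD, n = 3), and the ACSS2-HKO mean was 0.505 of the ACSS2-flox mean. On the log2 scale the fold change was -1.001 ± 0.23 (standard error), and its limma adjusted p of 0.554 was the lowest of the members. An exact permutation test gave p = 0.1, and 3 libraries against 3 cannot give less. With single libraries left out the log2 fold change ran from -1.165 to -0.815. In the whole liver, fewer hepatocytes and less transcript per hepatocyte cannot be told apart, here and for every member.

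Ces1e encodes egasyn, which anchors the enzyme beta-glucuronidase in the endoplasmic reticulum. Its levels were 64.0, 53.5 and 48.4 FPKM in the ACSS2-flox libraries, against 39.9, 37.9 and 30.5 FPKM in the ACSS2-HKO libraries. The groups did not overlap, and the means were 55.3 ± 7.94 and 36.1 ± 4.95 FPKM (SD, n = 3). The fold change was -0.60 ± 0.19 on the log2 scale, with limma giving an adjusted p of 0.637 and an exact permutation p of 0.1. The partner gene Gusb, which encodes beta-glucuronidase, read the other way, at 1.45, 3.76 and 3.61 FPKM in the ACSS2-flox libraries, against 4.47, 4.55 and 6.46 FPKM in the ACSS2-HKO libraries. Its groups did not overlap either, and its log2 fold change was 0.69 ± 0.28 (limma adjusted p = 0.649). The lowest Gusb value was that of ACSS2-flox replicate 1. The length that the Gusb values imply is 9588 bases, against 1840 to 3157 for the members.

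Ces1f encodes another lipase of the endoplasmic reticulum. It read 197, 187 and 207 FPKM in ACSS2-flox, the most even ACSS2-flox values among the Ces1 genes, and 148, 164 and 93.4 FPKM in ACSS2-HKO. The ACSS2-HKO values lay below all of these and were spread more widely. The means were 196.9 ± 10.2 and 135 ± 37.2 FPKM (SD, n = 3), which is -0.58 ± 0.24 on the log2 scale at an adjusted p of 0.649 by limma (exact permutation p = 0.1). Without ACSS2-HKO replicate 3, its lowest library, the log2 fold change was -0.332.

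Ces1g, the esterase whose loss in mice is known to bring fatty liver and raised blood lipids, is closest to Ces1d in sequence among the members. It read 128, 131 and 89.3 FPKM in the ACSS2-flox libraries, against 133, 99.9 and 144 FPKM in the ACSS2-HKO libraries. ACSS2-HKO replicates 1 and 3 lay above every ACSS2-flox library, and the groups overlapped through ACSS2-HKO replicate 2. The highest value was that of ACSS2-HKO replicate 3, which held the lowest Ces1d value. The means were 116 ± 23.2 and 125.5 ± 22.9 FPKM (SD, n = 3). The log2 fold change was 0.12 ± 0.23 as deposited (limma adjusted p = 0.923) and -0.015 after median-ratio scaling, so its sign depends on the scaling. It was 0.270 without ACSS2-HKO replicate 2 and -0.062 without ACSS2-flox replicate 3.

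Ces1c was the most abundant member, ranking 30 among all genes of the table by mean FPKM. It read 3033, 2045 and 1808 FPKM in the ACSS2-flox libraries, against 1877, 2087 and 1360.4 FPKM in the ACSS2-HKO libraries. Only ACSS2-flox replicate 1 lay above and only ACSS2-HKO replicate 3 lay below an otherwise shared range. The means of 2296 ± 649.6 and 1775 ± 374 FPKM (SD, n = 3) correspond to -0.36 ± 0.29 on the log2 scale (limma adjusted p = 0.779). Leaving out ACSS2-flox replicate 1 gave -0.139, leaving out ACSS2-HKO replicate 3 gave -0.177 and leaving out both gave 0.042. Its neighbour Ces1b, the other member without the retrieval signal, read 73.5, 58.4 and 34.7 FPKM in the ACSS2-flox libraries, against 33.8, 37.9 and 27.3 FPKM in the ACSS2-HKO libraries. The groups overlapped through ACSS2-flox replicate 3, and the log2 fold change was -0.68 ± 0.28 (limma adjusted p = 0.649), or -0.450 without ACSS2-flox replicate 1.

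The mean of Ces2a was lower and that of Ces2c higher in ACSS2-HKO. Ces2a, an acylglycerol hydrolase, read 89.2, 74.0 and 71.0 FPKM in the ACSS2-flox libraries, against 49.6, 59.8 and 40.9 FPKM in the ACSS2-HKO libraries, with no overlap. Its means were 78.1 ± 9.73 and 50.1 ± 9.47 FPKM (SD, n = 3), or -0.64 ± 0.20 as a log2 fold change, with an adjusted p of 0.637 by limma and an exact permutation p of 0.1. Ces2c, which hydrolyses acylcarnitines and glycerides, was the least abundant member, at 6.20, 5.90 and 6.35 FPKM in the ACSS2-flox libraries, against 9.12, 8.31 and 5.70 FPKM in the ACSS2-HKO libraries. In ACSS2-HKO replicates 1 and 2 it was above every ACSS2-flox library, and in replicate 3 below them all. Its log2 fold change was 0.26 ± 0.20 (limma adjusted p = 0.769). It was 0.144 without ACSS2-HKO replicate 1, 0.442 without ACSS2-HKO replicate 3 and 0.147 after median-ratio scaling.

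The Ces3 genes encode liver esterases known in older work as esterase 31 and its close copy. Ces3b showed the widest range of the family, at 64.0, 23.5 and 12.6 FPKM in the ACSS2-flox libraries, against 3.87, 10.4 and 5.79 FPKM in the ACSS2-HKO libraries. The groups did not overlap, though ACSS2-flox replicate 3 and ACSS2-HKO replicate 2 were close. The ACSS2-flox mean of 33.3 ± 27.1 FPKM was 4.99 times the ACSS2-HKO mean of 6.68 ± 3.35 FPKM (SD, n = 3). On the log2 scale this was -1.95 ± 0.54, with an adjusted p of 0.607 by limma and an exact permutation p of 0.1. Without ACSS2-flox replicate 1 it was -1.335. Ces3a read 293, 186 and 88.3 FPKM in the ACSS2-flox libraries, against 96.1, 159 and 135 FPKM in the ACSS2-HKO libraries. Those groups overlapped, and ACSS2-flox replicate 3 held the lowest value of all. Its log2 fold change of -0.41 ± 0.41 (limma adjusted p = 0.833) was -0.010 without ACSS2-flox replicate 1 and -0.870 without ACSS2-flox replicate 3.

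**Figure D2:**
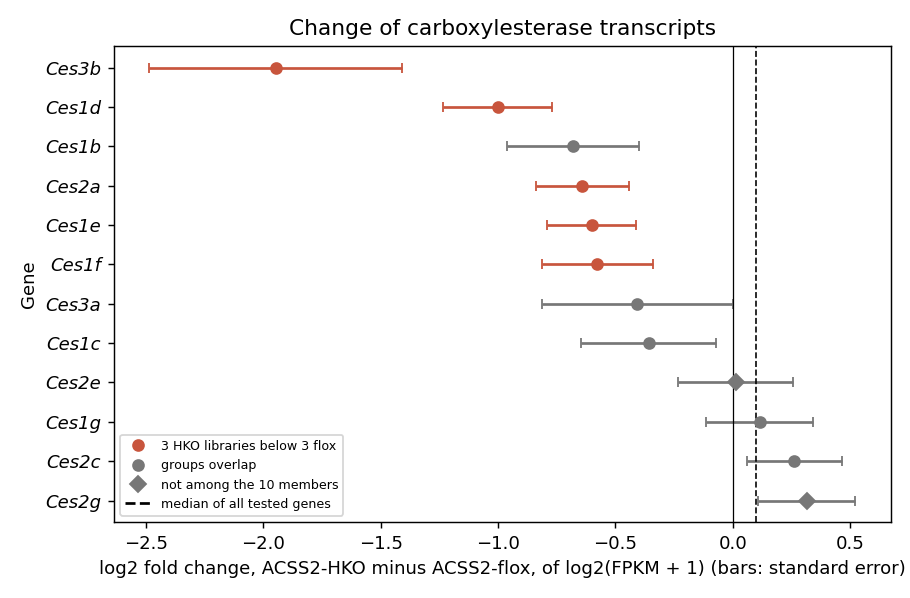
Log2 fold change, ACSS2-HKO minus ACSS2-flox, of log2(FPKM + 1) for the 10 members and for Ces2e and Ces2g (diamonds), with the standard error as a bar and the median of all tested genes as a dashed line at 0.10. Ces3b (-1.95) and Ces1d (-1.001) lie farthest to the left, and Ces1g, Ces2c, Ces2e and Ces2g lie above 0, of which Ces1g and Ces2e turn negative after median-ratio scaling.

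The ratio of 2 genes within a library does not depend on how libraries are scaled. The ratio was therefore taken within each couple of coding sequence, a comparison chosen after the values were seen, with the member of lower fold change on top. The ratio of Ces3b to Ces3a was 0.218, 0.126 and 0.142 in the ACSS2-flox libraries, against 0.0403, 0.0654 and 0.0429 in the ACSS2-HKO libraries. The lowest ACSS2-flox ratio was above the highest ACSS2-HKO ratio, and the difference was -1.71 on the log2 scale (-1.924 to -1.471 with single libraries left out). Ces2a to Ces2c read 14.4, 12.6 and 11.2 in the ACSS2-flox libraries, against 5.44, 7.19 and 7.17 in the ACSS2-HKO libraries, a log2 difference of -0.95. Ces1d to Ces1g read 2.98, 3.77 and 5.15 in the ACSS2-flox libraries, against 2.09, 2.28 and 1.18 in the ACSS2-HKO libraries, a log2 difference of -1.12. In these 3 couples the ratios did not overlap between the genotypes. Their upper genes Ces3b, Ces2a and Ces1d were already lower without overlap, so these ratios are not separate evidence. How often the ratios of other gene pairs do not overlap was not computed. The exact two-sided permutation p was 0.1 for each, the smallest possible, and 0.167 adjusted over the 5 couples. Ces1b to Ces1c overlapped (log2 difference -0.34, exact p = 0.2, adjusted 0.25), and the difference was -0.204 without ACSS2-flox replicate 2. Ces1e to Ces1f had mean ratios of 0.282 ± 0.0461 and 0.275 ± 0.0483 (SD, n = 3), a log2 difference of -0.03 (exact p = 0.8, adjusted 0.8).

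**Figure D3:**
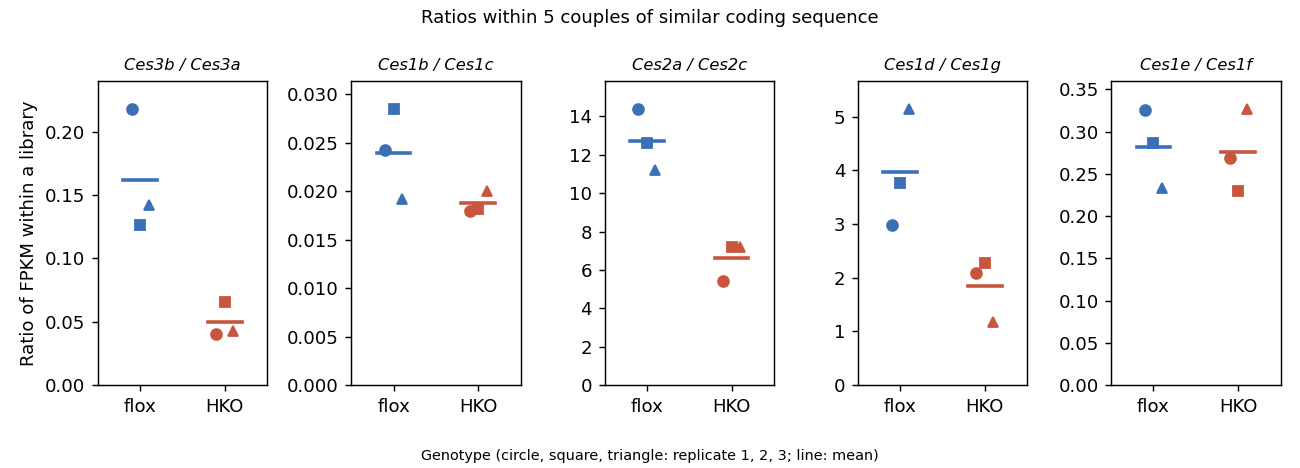
Ratio of FPKM within each library for the 5 couples of similar coding sequence, by genotype, with 1 point for each library and a line at the mean. The genotypes are apart for Ces3b / Ces3a, Ces2a / Ces2c and Ces1d / Ces1g and overlap for Ces1b / Ces1c and Ces1e / Ces1f.

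The summed FPKM of the carboxylesterases was mostly Ces1c, which made up 60.6% to 69.4% of the total in each library. With Ces1c, the members summed to 4330, 3257 and 2826 FPKM in the ACSS2-flox libraries, against 2667, 2893 and 2013 FPKM in the ACSS2-HKO libraries, and the groups overlapped. Without Ces1c they summed to 1297, 1212 and 1018 FPKM in the ACSS2-flox libraries, against 790.3, 805 and 652 FPKM in the ACSS2-HKO libraries, with no overlap and a ratio of means of 0.637. Over the 6 members with the full retrieval signal the means were 898 ± 41.2 and 579.7 ± 87.4 FPKM (SD, n = 3), so that the ACSS2-HKO mean was 0.646 of the other. The makeup of all carboxylesterase transcript other than Ces1c, Ces2e and Ces2g included, is given as shares in which each gene also depends on the others. Ces1d was 27.7%, 37.0% and 40.1% of it in the ACSS2-flox libraries, against 29.9%, 24.7% and 22.8% in the ACSS2-HKO libraries, with overlap through ACSS2-flox replicate 1. Ces1g was 9.29%, 9.83% and 7.78% in the ACSS2-flox libraries, against 14.3%, 10.8% and 19.3% in the ACSS2-HKO libraries, so this share did not overlap between the genotypes while its level did. The shares of Ces2c, Ces2e and Ces2g were likewise higher in every ACSS2-HKO library. With Ces1c counted in the total, the Ces1g share was 2.90%, 3.88% and 3.02% against 4.73%, 3.32% and 6.84%, with overlap through ACSS2-HKO replicate 2. The Ces2e share then also overlapped (1.442%, 2.915% and 3.652% against 3.707%, 3.052% and 3.466%), while those of Ces2c and Ces2g did not. The shares of Ces1e, Ces2a and Ces3b in this larger total were lower in every ACSS2-HKO library. Without Ces1c in the total, the shares of Ces1e, Ces2a and Ces3b overlapped.

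**Figure D4:**
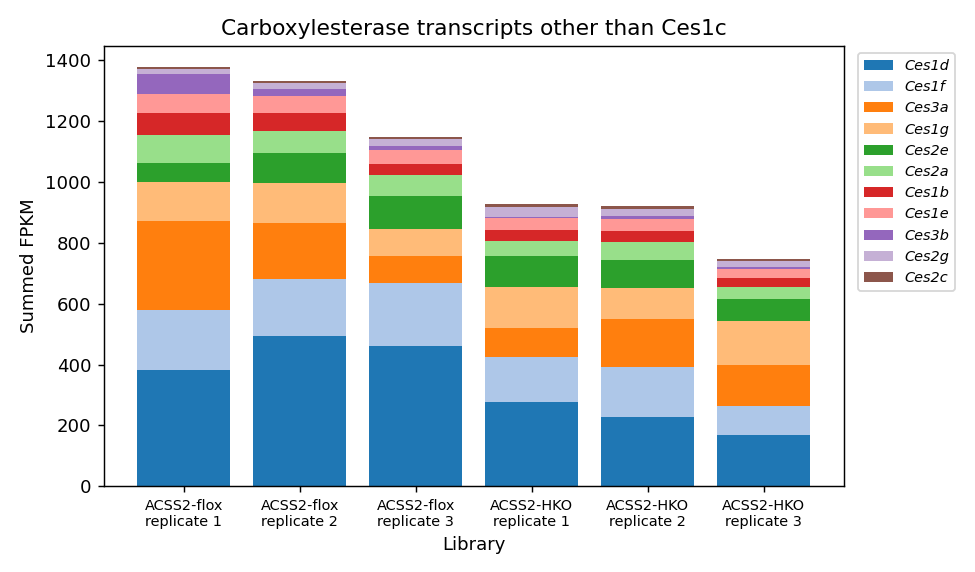
Summed FPKM of 11 carboxylesterase genes other than Ces1c in each library, stacked by gene, with Ces2e and Ces2g beside the members. The Ces1d segment at the bottom is shorter in every ACSS2-HKO library, and the stacks of the 3 ACSS2-HKO libraries are lower than those of the 3 ACSS2-flox libraries.

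The table holds 7 further carboxylesterase genes. Ces2e read 63.6, 98.4 and 108 FPKM in the ACSS2-flox libraries, against 104, 91.8 and 73.0 FPKM in the ACSS2-HKO libraries, with means of 90.0 ± 23.4 and 89.6 ± 15.6 FPKM (SD, n = 3) and a log2 fold change of 0.01 ± 0.25 (-0.115 after median-ratio scaling). Ces2g read 17.5, 21.1 and 22.4 FPKM in the ACSS2-flox libraries, against 32.3, 24.1 and 21.0 FPKM in the ACSS2-HKO libraries, or 0.31 ± 0.21 as a log2 fold change (limma adjusted p = 0.73). Both genes overlapped between the genotypes, as Ces2c did. Ces1a, Ces1h, Ces2b, Ces2h and Ces4a were below 0.2 FPKM in every library and were not tested.

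Upstream sequence is shown for members of different arrays that read lower in ACSS2-HKO, and for Ces1c as the most abundant member. RefSeq start sites on GRCm38.p6 were available for 7 of the 10 members. The lines give the 100 bases before the start, 5′ to 3′ on the gene's strand. Capitals mark any of 8 motifs searched on both strands over the 250 bases before the start. The positions are chr8:93131284-93131383 (minus strand) for Ces1c, chr8:93229620-93229719 (minus) for Ces1e, chr8:104733903-104734002 (plus) for Ces2a and chr8:105083655-105083754 (plus) for Ces3b.
Ces1c: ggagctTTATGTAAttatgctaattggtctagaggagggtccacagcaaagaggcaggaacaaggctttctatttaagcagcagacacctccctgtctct
Ces1e: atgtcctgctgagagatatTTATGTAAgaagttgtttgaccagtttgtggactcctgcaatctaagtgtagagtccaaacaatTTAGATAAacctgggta
Ces2a: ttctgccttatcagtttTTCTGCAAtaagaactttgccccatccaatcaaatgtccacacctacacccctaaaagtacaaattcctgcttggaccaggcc
Ces3b: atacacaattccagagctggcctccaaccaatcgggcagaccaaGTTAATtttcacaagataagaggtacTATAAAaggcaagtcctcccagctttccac
The D-box (TTATNTAA), the element read by the clock output factors of the PAR bZIP family, matched in 4 of the 7 members (Ces1b, Ces1c, Ces1e and Ces1g), and in 3.17% of 32851 upstream windows of the same length. Members are counted by gene, with a match before any of its start sites, while the shares are of single windows. Ces1b had a further start site, whose window held no D-box match. In Ces1e the D-box matched at bases -81 to -74 and -17 to -10, and in Ces1c at -94 to -87. The C/EBP motif (TTGCNNAA) matched in Ces1b, Ces1c and Ces2a, and in 9.56% of all windows. The TATA box letters (TATAAA) matched on the gene's strand in Ces3b and only on the opposite strand in Ces1g (12.4% of all windows, either strand). An HNF1 half-site (GTTAAT) matched in Ces3b (6.43%) and a nuclear receptor half-site (AGGTCA) in Ces2a (14.0%). The HNF4 motif (CAAAGTCCA, 0.384%), the antioxidant response element (TGACNNNGC, 10.2%) and the E-box (CACGTG, 6.02%) matched in none of the 7. These genes arose by duplication and share sequence, so the matches are not independent of each other. The D-box matched in Ces1c and Ces1g, whose groups overlapped, as well as in Ces1e.

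Genes around the carboxylesterases in lipid and drug metabolism were read from the same fit, and 0 members of any list passed the adjusted threshold in either direction. Of 14 triglyceride and cholesteryl ester lipases, 1 was lower and 2 were higher at an unadjusted p under 0.05, with a median log2 fold change of 0.07 (-0.06 after median-ratio scaling). Beside each list in this paragraph, 1.5% of all tested genes were lower and 6.09% higher by that measure. The hepatic lipase gene Lipc read 88.1 ± 14.4 FPKM in ACSS2-flox, against 59.2 ± 8.34 FPKM in ACSS2-HKO (SD, n = 3), with no overlap and a limma adjusted p of 0.637. The lipase genes Ddhd1 and Pnpla6 had log2 fold changes of 0.43 ± 0.18 and 0.52 ± 0.22. Of 15 genes for VLDL assembly and ester synthesis, 1 was lower and 3 higher (median 0.07, and -0.06 after median-ratio scaling). Sar1b, which carries lipoprotein cargo out of the endoplasmic reticulum, had a log2 fold change of -0.53 ± 0.22 and P4hb, a subunit of the microsomal triglyceride transfer protein complex, one of 0.59 ± 0.20. The apolipoprotein gene Apoa4 read 1.18 ± 0.48 on that scale, with ACSS2-HKO replicate 1 at 3316 FPKM and the others between 545.5 and 1114. Of 20 other liver esterases, 0 were lower and 0 higher by that measure (median -0.03, and -0.14 after median-ratio scaling). Aadac, arylacetamide deacetylase, another lumenal hydrolase, read 411 ± 81.1 and 291 ± 69.3 FPKM (SD, n = 3), with overlap, and Naaa and Siae had log2 fold changes of 0.60 ± 0.28 and 0.45 ± 0.22. Of 15 liver transcription factors, 1 was lower and 0 higher (median -0.06, and -0.19 after that scaling). This was Nr1i3, the xenobiotic receptor CAR, at -0.53 ± 0.23 on the log2 scale with overlapping groups, and Cebpa read -0.36 ± 0.17 and Onecut1 0.74 ± 0.35. Of 17 targets of CAR and of the related receptor PXR, 1 was lower and 0 higher (median -0.16, and -0.29 after that scaling). The transporter gene Slco1a4 read -0.96 ± 0.27, Gstt1 -0.56 ± 0.26 and Cyp3a13 0.44 ± 0.19. Of 13 targets of the oxidative stress factor NRF2, 0 were lower and 6 higher at that unadjusted p (median 0.76, and 0.64 after that scaling), among them Cbr3 (1.59 ± 0.28), Nqo1 (0.76 ± 0.18) and Gstm3 (1.20 ± 0.38).

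Markers of inflammation and of other cell types were read beside the members, and none passed the adjusted threshold. Of 21 acute phase genes 15 were higher at an unadjusted limma p under 0.05 and 0 lower, against 6.09% and 1.5% of all tested genes. The acute phase genes had a median log2 fold change of 1.31 (Lrg1 1.97 ± 0.29, Socs3 1.099 ± 0.202, Orm3 2.38 ± 0.52). Their summed FPKM ran from 10339 to 12461 in ACSS2-flox and from 15984 to 56304 in ACSS2-HKO, with the highest sum in ACSS2-HKO replicate 3, the library with the lowest median of the members. Relative to the ACSS2-flox mean, that median was -0.543, -0.315 and -0.869 on the log2 scale in ACSS2-HKO replicates 1, 2 and 3, and the acute phase median was 0.776, 0.847 and 2.42. The 15 neutrophil markers summed to 14.7 to 22.3 FPKM in ACSS2-flox and 47.0 to 384 FPKM in ACSS2-HKO, with Ly6g, Mpo, Elane and Camp at 0 in at least 1 library. Most of the sum in each ACSS2-HKO library was S100a8 and S100a9, at 137.59 and 176.6 FPKM in ACSS2-HKO replicate 3. The neutrophil sum is therefore mainly a reading of these genes. Only 6 of the 15 neutrophil markers reached the mean FPKM for testing. These 6 were higher without overlap, against 12.5% of all tested genes. The mean for testing was taken over both genotypes, so a marker could reach it through its ACSS2-HKO values. This was so for Retnlg, whose ACSS2-flox mean was 0.655 FPKM beside an ACSS2-HKO mean of 11.3. S100a8 and S100a9 had ACSS2-flox means of 4.69 and 6.79 FPKM, above the limit of 1. The 15 macrophage markers summed to 486 to 788 and 914 to 2327 FPKM, with none at 0. Adipocytes also make Ces1d and Ces1f, and their 5 markers in the table summed to 13.4 to 27.5 and 26.6 to 47.0 FPKM. The defining markers Adipoq, Plin1 and Cfd were at 0 in at least 1 library. Most of the sum in each library was Fabp4 (1.06 ± 0.28 on the log2 scale). The other tested marker, Cidec, overlapped between the genotypes (0.33 ± 0.74). Of 14 hepatocyte markers, 11 had negative log2 fold changes, beside 3335 of all 9818 tested genes. Of the 14, 3 were lower without overlap, against 2.94% of all tested genes. The median log2 fold change of these markers was -0.24 beside -0.59 for the carboxylesterases (-0.38 beside -0.72 after median-ratio scaling). The hepatocyte markers of smallest p were Hpd, an enzyme of tyrosine breakdown (-0.69 ± 0.27), Apoa2 (-0.75 ± 0.39) and Ttr (-0.59 ± 0.33). Ttr overlapped between the genotypes, while Hpd and Apoa2 did not. Apoa2 read 11705, 4872 and 4941 FPKM in the ACSS2-flox libraries, highest in replicate 1. The 14 hepatocyte markers summed to 70403 to 109820 FPKM in ACSS2-flox and 61586 to 71568 FPKM in ACSS2-HKO. The 10 stellate cell and fibroblast markers summed to 176 to 231 FPKM in ACSS2-flox and 167 to 270 FPKM in ACSS2-HKO. Of these, 5 were higher without overlap (12.5% of all tested genes) and 4 higher at an unadjusted p under 0.05 (6.09%). The log2 fold changes of the 10 had a median of 0.34 (0.25 after median-ratio scaling), and 3 were negative. The 3 of smallest p were Col1a1 at 0.89 ± 0.25, Col3a1 at 0.75 ± 0.27 and Pdgfrb at 0.54 ± 0.22 on the log2 scale. The 10 endothelial markers summed to 67.6 to 286 and 185 to 220 FPKM, with the lowest endothelial sum in ACSS2-flox replicate 1. Sums were 30.6 to 60.1 and 39.9 to 76.8 FPKM for 8 cholangiocyte markers (Cftr at 0 in at least 1 library), and 6.67 to 10.2 and 6.52 to 14.5 FPKM for 10 lymphocyte markers (Ncr1 at 0 in at least 1). The 2 acinar pancreas markers in the table summed to 0.247 to 1.19 FPKM over all libraries. The part of these in the carboxylesterase levels was not tested.

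For the 3 members with the widest range over the libraries, the genes outside the family with the most similar pattern were found by the root-mean-square difference of log2(FPKM + 1) deviations over the 6 libraries. For Ces3b these were the sulfotransferase genes Sult2a8 (0.408) and Sult2a5 (0.501) and the cytochrome P450 gene Cyp2c69 (0.502). Sult2a8 read 185, 134 and 84.2 FPKM in the ACSS2-flox libraries, against 32.1, 61.2 and 30.6 FPKM in the ACSS2-HKO libraries, the same order of libraries as Ces3b except that the lowest pair was swapped. For Ces3a they were Rdh11 (0.185), Fam25c (0.195) and the haem synthesis gene Alas1 (0.198). For Ces1d they were the desaturase gene Fads2 (0.185), the peroxisomal thiolase gene Acaa1b (0.205) and Slco1a4 (0.206). Fads2 read 418, 570 and 480 FPKM in the ACSS2-flox libraries, against 401, 238 and 233 FPKM in the ACSS2-HKO libraries. These genes were picked from the same libraries as the members, so the likeness is a description of the 6 libraries.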

How the data were processed

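The authors deposited 1 table of FPKM values with a column for each of the 6 libraries, per the file headers. The submitters' processing notes name mm10 and DESeq2 without their roles. The sources used here do not give the aligner, counting tool or filters. Total RNA went into a VAHTS Universal V6 library kit, per the labels' protocols. Genotype labels set the groups. The members and gene lists were chosen with earlier results of these data known. Named genes are the members, the other carboxylesterases, Gusb, Acss2, up to 3 genes of smallest p in each list (for cell type lists mostly given as sums) and the closest patterns.

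Tests ran on log2(FPKM + 1) for the 9818 genes whose mean reached 1 FPKM, all 10 members included, with limma 3.58.1 in R 4.3.3 (lmFit, eBayes with trend, two-sided), Benjamini-Hochberg adjustment over all genes and a threshold of 0.05. The pseudocount of 1 shrinks fold changes of low genes. The exact permutation test used all 20 arrangements. A search for whole lengths and library totals, with 186 intronless genes setting the scale, gave whole fragment counts, within 0.01, for 16134 of 16135 genes. The smallest fitting length was taken, which can be too short for genes with few fragments. The limma fit and the search for lengths and counts were tried on simulated data, the search with the library totals given. The totals and their scale were not tested in this way. The simulated libraries for limma held none set apart like the distant libraries here. Alternatives were a pseudocount of 0.1 or 5, all genes or those at 5 FPKM and above, TPM, median-ratio and quantile scaling, other variance models, array weights, a loess correction for gene length (span 0.5), voom, the replicate block and libraries left out.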

Additional observations from a re-analysis of the deposited data

How the results depend on the processing

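No member passed the adjusted threshold under any of the 20 alternatives run. Of these, only TPM, median-ratio and quantile scaling, the length correction and voom could bring the 5 members without overlap in the lower direction to overlap. None of these did, while 2.33% to 7.71% of all tested genes were lower without overlap. Leaving out libraries cannot create overlap, and that share was then 3.46% to 17.7%. Leaving out both distant libraries moved the median of the members from -0.589 to -0.328, Ces1e to -0.379 and Ces2a to -0.407, and turned Ces1c to 0.042. Ces1g turned to -0.015 with median-ratio scaling, -0.027 with voom and -0.062 without ACSS2-flox replicate 3, the low end of -0.062 to 0.270 with single libraries left out. The count of members higher without overlap was 0 as deposited, 0 to 1 with single libraries left out and 1 without both distant libraries. The log2 difference of Ces1e to Ces1f turned to 0.076 without ACSS2-flox replicate 1 and to 0.087 without ACSS2-HKO replicate 2, in a range of -0.164 to 0.087 with single libraries left out. Over all genes, single libraries left out gave 0 to 3 higher calls, with the 3 arising without ACSS2-HKO replicate 2. The deviations of same-numbered libraries had correlations of 0.0132, 0.0032 and -0.0627, between the -0.17 and 0.154 reached by differently numbered ones. With 3 libraries per genotype these values cannot decide whether same-numbered libraries belong together. With the replicate block limma called 1 gene higher and 3 lower, none of them a member. Fragment counts of at least 412 leave little counting error in the members, and 3 libraries per genotype limit the precision.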
